A study of Mus musculus with 18 samples.

Results

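The genes described here are 10 genes of the smooth-muscle contractile programme, read in mouse embryonic fibroblasts. They were chosen by symbol: the actins Acta2 and Actg2, the tropomyosins Tpm1 and Tpm2, the calponins Cnn1 and Cnn2, the actin-binding protein Tagln, the myosin chains Myl9 and Myh11, and the intermediate filament gene Des. All 10 were found among the 35734 genes of the authors' deposited table. The fibroblasts were of the R26-M2rtTA mouse line on the C57BL/6 strain, a line that carries the doxycycline-responsive transactivator at the Rosa26 locus. In one group, doxycycline-inducible lentiviral vectors supplied the neuronal transcription factors Brn2 (gene Pou3f2) and Myt1l. In the other group the same 2 factors were joined by the zinc-finger factors Ikzf1 and Ikzf4. Both groups received doxycycline for 2 days and were read at 48 h, with 3 RNA-seq libraries each. Both groups therefore carried Brn2 and Myt1l, and every difference below is one between the group with and the group without Ikzf1 and Ikzf4, not a difference from untransduced fibroblasts. The labels do not say whether the libraries of a group came from separate cultures or embryos, so the p-values measure only the spread between these libraries.

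Contractile smooth muscle cells build actin filaments from smooth-muscle actins, stabilise them with tropomyosin, and pull on them with myosin, while calponin and transgelin bind along the filament and desmin links the filament anchors. Fibroblasts in culture carry much of the same programme, and alpha-smooth-muscle actin (Acta2) is the usual marker of their contractile, myofibroblast-like state. Many of these genes are controlled by serum response factor, which binds a sequence called the CArG box together with coactivators of the myocardin family.

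The sequence before the start of 3 members is shown because they are the member that fell with the smallest adjusted p, the 1 member that rose and a member that did not pass the test. Each is the 250 bases before the RefSeq start on the gene's own strand, 5' to 3', in build GRCm38.p6. The windows are chr19:34255374-34255623 on the minus strand for Acta2, chr9:22099003-22099252 on the plus strand for Cnn1 and chr2:156775214-156775463 on the plus strand for Myl9. Capitals mark CArG boxes (CC, 6 letters that are each A or T, GG) and matches in which 1 of those 6 core letters is G or C.
Acta2: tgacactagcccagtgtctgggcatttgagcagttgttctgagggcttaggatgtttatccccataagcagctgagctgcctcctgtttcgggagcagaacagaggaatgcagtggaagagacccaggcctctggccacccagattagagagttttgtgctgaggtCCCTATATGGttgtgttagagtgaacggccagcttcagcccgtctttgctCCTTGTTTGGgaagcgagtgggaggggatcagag
Cnn1: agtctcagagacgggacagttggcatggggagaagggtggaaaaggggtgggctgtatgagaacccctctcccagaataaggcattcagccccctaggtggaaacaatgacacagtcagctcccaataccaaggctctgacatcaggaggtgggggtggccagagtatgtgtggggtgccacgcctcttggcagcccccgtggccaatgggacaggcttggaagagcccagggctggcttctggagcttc
Myl9: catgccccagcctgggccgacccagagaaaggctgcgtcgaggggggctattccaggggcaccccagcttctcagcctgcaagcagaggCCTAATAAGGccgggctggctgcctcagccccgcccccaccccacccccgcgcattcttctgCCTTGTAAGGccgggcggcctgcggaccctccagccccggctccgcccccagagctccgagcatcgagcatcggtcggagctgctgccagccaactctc

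Promoter sequences were matched by symbol for 7 of the 10 genes, and Actg2, Tagln and Myh11 had none. An exact CArG box was found in 2 of the 7, Cnn2 and Myl9, against 1.47% of the 32851 promoter windows of the same length. With 1 core letter free, 3 of the 7 had a match (Acta2, Cnn2 and Myl9), against 8.59% of all windows. Acta2 had 2 such matches, at 84 to 75 and at 34 to 25 bases before the start. Myl9 had an exact box at 161 to 152 bases and a match with 1 letter off at 99 to 90 bases. The box of Cnn2 lay 56 to 47 bases before the start. Searched on both strands, TGGGAA, a motif of the type that Ikaros family proteins bind, was present in 2 of the 7 (Acta2 and Tpm1), against 21.6% of windows. Its match in Acta2, at 27 to 22 bases, overlaps the nearer of the CArG-type matches, and Tpm1 had matches at 110 to 105 and 38 to 33 bases. CATTCC, the MCAT motif bound by TEAD factors, was present in the same 2 genes on a search of both strands (12.6% of windows), at 146 to 141 bases in Acta2 and 56 to 51 in Tpm1. Cnn1, Tpm2 and Des had no match to any of these motifs, which says only that these letters are not in this window. A match describes the sequence and is not evidence of a bound site.

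**Figure D1:**
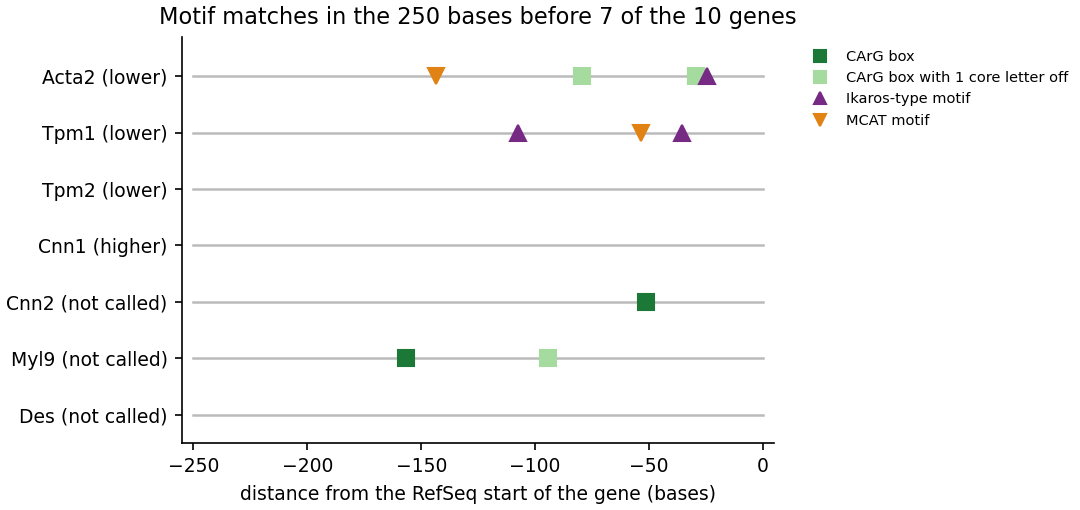
Positions of motif matches in the 250 bases before the start of the 7 genes with a RefSeq promoter, with distance from the start in bases on the horizontal axis and the expression call of each gene in brackets. Acta2 holds 4 matches, and Cnn1, which rose, Tpm2, which fell, and Des, which did not pass, hold none.

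Depth was 34966344 to 44270426 estimated reads per library. Per the authors' deposited table Ikzf1 was higher by 7.76 (SE 0.17) and Ikzf4 by 8.54 (SE 0.15) on the log2 scale with the added vectors. The direction of the deposited comparison was read from these 2 genes, so their sign is no check of the labels. Myt1l, supplied to both groups, was also higher by 0.50 (SE 0.17, DESeq2 adjusted p = 0.0157) in that deposited table, whereas Pou3f2 had a log2 fold change of -0.05 (SE 0.08, adjusted p = 0.689). The part of the difference in Myt1l in the results below was not tested. Of the 16757 genes with an adjusted p in the deposited table, 5133 passed a DESeq2 adjusted p of 0.05, with 2558 higher and 2575 lower, and the median log2 fold change over them was -0.00043. Per transcript, edgeR called 3095 of 43526 transcripts (7.11%) on the deposited estimated counts. That count was 728 to 1701 when 1 library was left out (45871 to 46518 tested), each of the 6 moving it by over 1.5 times. It was 8 with the replicate number as a block. DESeq2 called 7372 of 54053 tested, so both the test and the tested set differed there. The sources used here do not name the members' transcripts.

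Of the 10 contractile genes, 5 fell, 1 rose and 4 did not pass the test in the authors' deposited table (DESeq2, adjusted p under 0.05). Acta2, Actg2, Tpm1, Tpm2 and Tagln fell when Ikzf1 and Ikzf4 were added, and Cnn1 rose. Cnn2, Myl9, Myh11 and Des did not pass. Among all genes with an adjusted p, 30.6% passed, 15.4% lower and 15.3% higher. Among the 9238 genes with a mean normalised count of at least 500, a division made after the data were seen that holds 9 of the 10 members, 39.5% passed, 20.7% lower and 18.8% higher. All 6 calls held at an adjusted p under 0.01, which 22.5% of genes with an adjusted p passed. They also held with Benjamini-Hochberg adjustment over every raw p. There 4759 of 24712 genes (19.3%) passed, a wider set than the 16757 with a deposited adjusted p. None of the 10 had an adjusted p under 0.05 with an absolute log2 fold change over 0.5, against 10.2% of genes with an adjusted p. The deposited fold changes may be shrunk: the recovered log2 ratio of Acta2, -0.503, lies just past that limit, against -0.495 as deposited. The members' 5 of 10 lower calls stand above both background shares and their 1 of 10 higher call below both, in a set too small to read more from. The set and the gene lists below were also chosen with earlier results of these data known. Their shares beside the background are therefore a description and not a test. The changes were modest: the median log2 fold change of the 10 was -0.21, with 7 below 0 and 3 above. Summed over the 10 genes, the level implied by the authors' deposited table went from 233287 to 190956 normalised counts, a ratio of 0.819. Much of that fall was Acta2 alone, whose implied level went from 85698 to 60789, so the sum does not describe each gene. In bulk RNA, fewer cells that express these genes and less RNA per cell cannot be told apart.

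**Figure D2:**
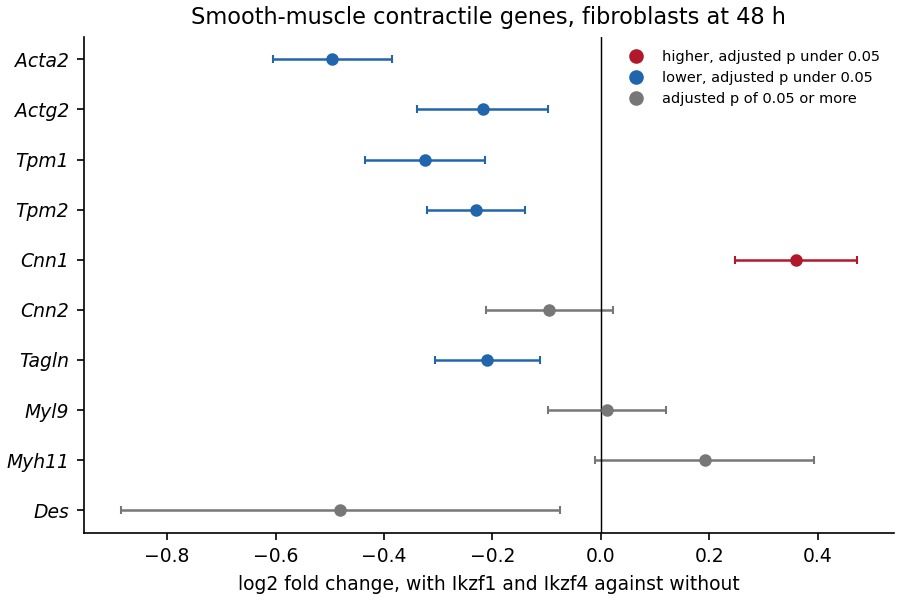
Log2 fold change of each of the 10 genes with Ikzf1 and Ikzf4 against without, from the authors' deposited table, with 95% intervals that are not adjusted for the number of genes. The actins, tropomyosins and Tagln lie below 0, Cnn1 lies above 0, and the bars of Cnn2, Myl9 and Myh11 cross 0.

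Smooth-muscle actins form the thin filament. Acta2 (ENSMUSG00000035783) is the alpha isoform and had the smallest adjusted p of the 10. Its normalised counts, recovered from the deposited estimated counts, were 91452, 81975 and 84241 in the 3 libraries without Ikzf1 and Ikzf4. With them the counts were 62589, 62015 and 57188. All 3 libraries with the added factors lay below all 3 without them. The group means were 85889 ± 4949 (SD, n = 3) and 60597 ± 2966 (SD, n = 3), and the two-sided exact permutation p was 0.1, the smallest that 3 against 3 libraries can give. Per the authors' deposited table the log2 fold change was -0.50 (SE 0.06, DESeq2 adjusted p = 3.19e-17), a ratio of 0.709 with a 95% interval of 0.658 to 0.765. Leaving out each library in turn kept the log2 ratio of the recovered group means between -0.54 and -0.46. For every gene with recovered values, only matches with a fold change near the deposited one were taken. The recovered values are therefore no independent check of the deposited change. The promoter of Acta2 printed above holds 2 CArG-type matches, each with 1 core letter off. That of Myl9, which did not pass the test, holds 1 exact box and 1 match with 1 letter off. A link between these matches and the expression values was not tested.

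Actg2 (ENSMUSG00000059430), the gamma isoform of visceral smooth muscle, also fell. Its level implied by the authors' deposited table went from 6217 to 5347 normalised counts, a ratio of 0.86 (95% interval 0.791 to 0.935, DESeq2 adjusted p = 0.00233). The cytoplasmic actins moved in the same direction by less than Acta2 in the authors' deposited table: Actg1 fell by 0.25 (SE 0.06) and Actb by 0.18 (SE 0.06) on the log2 scale. The log2 fold change of Actg2, -0.22 (SE 0.06), lies between these 2. The skeletal actin Acta1 had a log2 fold change of -0.07 (SE 0.10, DESeq2 adjusted p = 0.692) per the authors' deposited table, and the cardiac actin Actc1, at a mean of 1.71 normalised counts, was given no adjusted p. The differences in size between actins were not tested. Actin genes are related in their coding sequence, and how reads were split between them was not tested.

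Tropomyosins lie along the actin filament and set which myosins can reach it. Tpm1 (ENSMUSG00000032366) fell, from 44771 to 35757 normalised counts implied by the authors' deposited table, a log2 fold change of -0.32 (SE 0.06, DESeq2 adjusted p = 1.17e-07). Tpm2 (ENSMUSG00000028464) fell from 15243 to 12987 by the same measure, a log2 fold change of -0.23 (SE 0.05, DESeq2 adjusted p = 5.67e-06, the authors' deposited table). Tpm2 overlaps Car9 in the RefSeq gene order, and the sources used here name no strand setting for the counting. Car9 was counted at a mean of 10.3 normalised counts in the authors' deposited table. The remaining tropomyosins did not pass the test there: Tpm3 had a log2 fold change of -0.09 (SE 0.04, DESeq2 adjusted p = 0.0616) and Tpm4 of 0.02 (SE 0.05, DESeq2 adjusted p = 0.876) per the authors' deposited table. Tpm1 and Tpm2 each make muscle and non-muscle isoforms from alternative exons, and the gene values do not separate them.

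Calponins and transgelins are related actin-binding proteins, and this family held both directions. Cnn1 (ENSMUSG00000001349), the calponin of differentiated smooth muscle, was the only member that rose. Its implied level went from 5744 to 7369 normalised counts in the authors' deposited table, a ratio of 1.28 (95% interval 1.19 to 1.39) and a log2 fold change of 0.36 (SE 0.06, DESeq2 adjusted p = 7.92e-09). Its promoter, printed above, had no CArG box in the 250 bases searched, and a link between this and its rise was not tested.

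Cnn2 (ENSMUSG00000004665), a calponin found in many cell types, did not pass. Its recovered normalised counts were 17319, 15515 and 16204 without the added factors and 15603, 16002 and 14251 with them. The groups overlapped, with means of 16346 ± 910 and 15286 ± 918 (SD, n = 3 each) and a two-sided exact permutation p of 0.3. The log2 ratio of these means was -0.10, and leaving out each library in turn moved it between -0.13 and -0.05. Per the authors' deposited table the ratio was 0.936 with a 95% interval of 0.863 to 1.02 (DESeq2 adjusted p = 0.238). Cnn3, the remaining calponin, rose by 0.16 (SE 0.05, DESeq2 adjusted p = 0.00989) on the log2 scale per the authors' deposited table.

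Tagln (ENSMUSG00000032085), also called SM22-alpha and an early smooth-muscle marker, fell from 44881 to 38814 implied normalised counts in the authors' deposited table, a log2 fold change of -0.21 (SE 0.05, DESeq2 adjusted p = 0.000161). Tagln overlaps Pcsk7, whose log2 fold change was -0.13 (SE 0.08, DESeq2 adjusted p = 0.264) at a mean of 1036 in the authors' deposited table. The paralogues did not pass: in the authors' deposited table Tagln2 had a log2 fold change of 0.01 (SE 0.07, DESeq2 adjusted p = 0.918) and Tagln3, at a mean of 17.9, one of -0.33 (SE 0.22, DESeq2 adjusted p = 0.265).

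**Figure D3:**
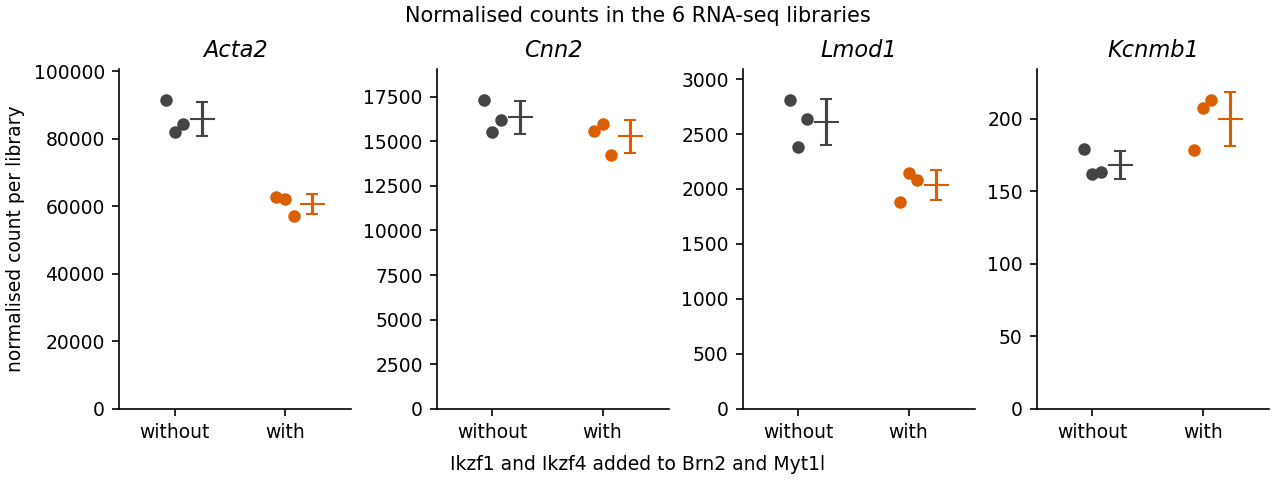
Normalised counts in each of the 6 libraries (points), with the mean and SD of each group (bars, n = 3), for 2 members and 2 genes of the contractile apparatus whose values could be recovered; each vertical axis starts at 0. The groups do not overlap for Acta2 and Lmod1, and overlap for Cnn2 and Kcnmb1.

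Neither myosin member passed the test. Myl9 (ENSMUSG00000067818), the regulatory light chain whose phosphorylation starts contraction, had implied levels of 13462 without and 13572 with the added factors in the authors' deposited table, a ratio of 1.01 (95% interval 0.935 to 1.09, DESeq2 adjusted p = 0.912). The lower bound of that interval lies above the upper bound of 0.765 for Acta2. Myh11 (ENSMUSG00000018830), the smooth-muscle myosin heavy chain, had a log2 fold change of 0.19 (SE 0.10, DESeq2 adjusted p = 0.154) at a mean of 897 normalised counts in the authors' deposited table. Its ratio in the authors' deposited table was 1.14, with a 95% interval of 0.993 to 1.31. Among the non-muscle paralogues, Myh10 rose by 0.11 (SE 0.04, DESeq2 adjusted p = 0.0151) on the log2 scale per the authors' deposited table. Myl6, Myl12a, Myl12b, Myh9 and Myh14 did not pass, with log2 fold changes between -0.19 (Myh14) and 0.01 (Myl12a) in the authors' deposited table.

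Des (ENSMUSG00000026208), the muscle intermediate filament protein, was the most thinly counted of the 10. Its implied level was 97.3 without and 69.8 with the added factors in the authors' deposited table, a log2 fold change of -0.48 (SE 0.21, DESeq2 adjusted p = 0.0627). Shrinkage, if applied, would reduce a thinly counted gene such as Des more than Acta2, so the sizes of their changes were not ranked. The 95% interval of the ratio ran from 0.541 to 0.949 and the adjusted test was not passed. Vim, the intermediate filament gene of fibroblasts, fell by 0.59 (SE 0.06, DESeq2 adjusted p = 3.47e-20) on the log2 scale per the authors' deposited table. Over the 16 paralogues of the members, 5 of the 15 with an adjusted p passed in the authors' deposited table, 3 lower and 2 higher, close to the 30.6% of all genes that passed, with a median log2 fold change of -0.06.

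**Figure D4:**
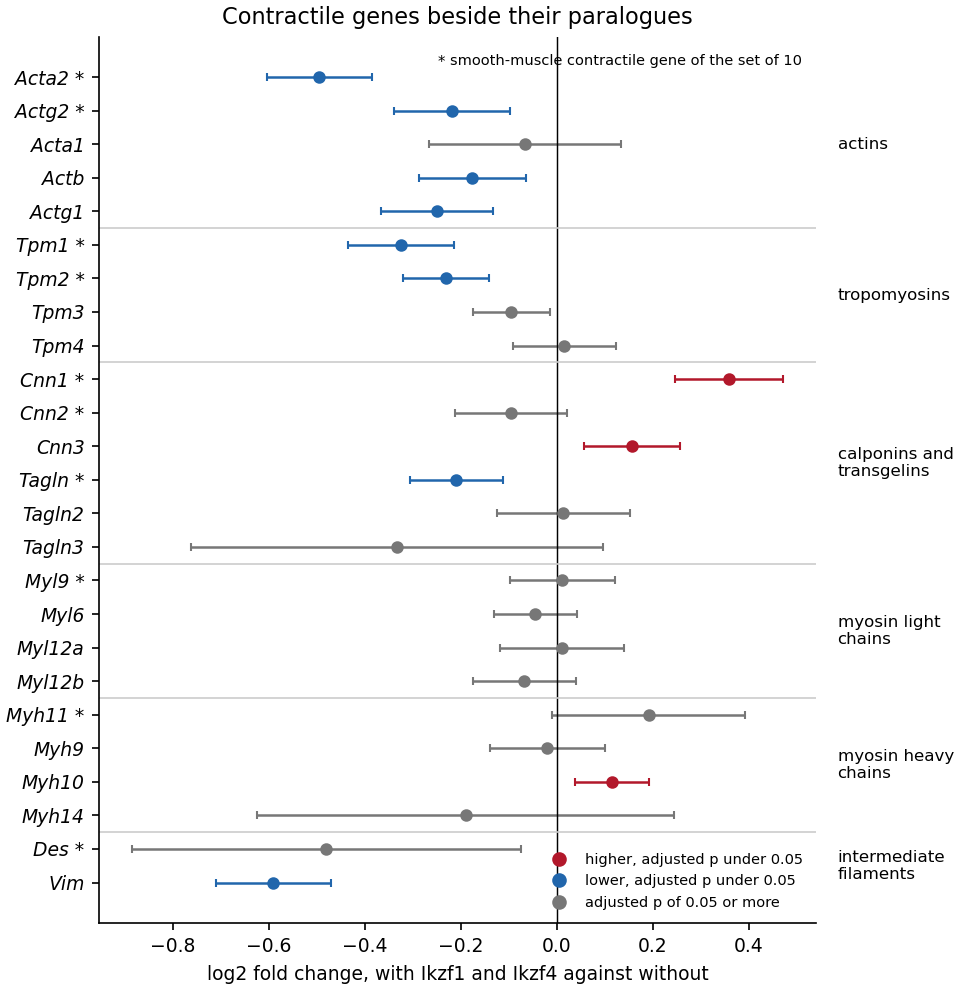
Log2 fold changes with 95% intervals of the 10 genes (starred) and 15 paralogues that have an adjusted p, grouped by protein family, from the authors' deposited table. Lower calls sit among actins and tropomyosins and at Tagln and Vim, and higher calls at Cnn1, Cnn3 and Myh10.

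The wider contractile apparatus and its anchoring to the membrane was read from a list of 30 genes. Of the 29 with an adjusted p in the authors' deposited table, 13 passed (DESeq2), 12 lower and 1 higher, and the median log2 fold change was -0.13. Among all genes with an adjusted p 15.4% were lower and 15.3% higher. Among those with a mean of at least 500, where most of this list lies, 20.7% were lower and 18.8% higher. Of the 13, 9 passed at an adjusted p under 0.01, and 1 also had an absolute log2 fold change over 0.5. Ppp1r12b, a regulatory subunit of myosin phosphatase, had the largest fall, -0.93 (SE 0.07, DESeq2 adjusted p = 7.13e-35) on the log2 scale per the authors' deposited table. Vcl, vinculin of the cell-matrix anchors, fell by 0.39 (SE 0.05), Csrp1, a LIM protein of the filaments, by 0.36 (SE 0.04) and Pdlim5, a Z-disc and stress fibre adaptor, by 0.28 (SE 0.04) in the authors' deposited table. The 1 gene that rose was Ldb3, a Z-disc adaptor named after its value was seen, with a log2 fold change of 0.40 (SE 0.13, DESeq2 adjusted p = 0.0116) per the authors' deposited table.

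Lmod1, an actin nucleator of smooth muscle, and Kcnmb1, a subunit of a potassium channel of smooth muscle, are named because their values per library could be recovered. Lmod1 had 2809, 2386 and 2637 normalised counts without the added factors and 1881, 2141 and 2077 with them. The groups did not overlap (two-sided exact permutation p = 0.1, the smallest possible). Kcnmb1 had 179, 162 and 164 without and 178, 208 and 213 with them, and the groups overlapped (exact permutation p = 0.2).

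Upstream regulators of the programme were read from a list of 20 genes. Of these, 4 rose and none fell in the authors' deposited table (DESeq2, adjusted p under 0.05), with a median log2 fold change of 0.05. At an unadjusted p under 0.05, 2 were lower. Among all genes with an adjusted p 15.3% were higher and 15.4% lower. Among those with a mean of at least 500, where most of this list lies, 18.8% were higher and 20.7% lower. Klf5, a Krüppel-like factor of activated smooth muscle cells, had the largest change, 1.34 (SE 0.13, DESeq2 adjusted p = 8.93e-22) on the log2 scale per the authors' deposited table. Foxo4, a forkhead factor known to hold back myocardin, was higher by 0.35 (SE 0.08), Tgfbr1, a receptor of TGF-beta, by 0.31 (SE 0.06) and Mrtfb, a coactivator of serum response factor, by 0.26 (SE 0.08) in the authors' deposited table. Srf itself had a log2 fold change of 0.13 (SE 0.08, DESeq2 adjusted p = 0.204) and Mrtfa one of 0.04 (SE 0.07, DESeq2 adjusted p = 0.762) per the authors' deposited table. Myocd, myocardin, was at a mean of 15.4 with a log2 fold change of -0.30 (SE 0.20, DESeq2 adjusted p = 0.278) per the authors' deposited table. Srf, Mrtfa and Myocd were named for their role after their values were seen.

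Markers of the cell types that a fibroblast culture can hold were read beside these values, and their part in the contractile gene results was not tested. Of the 12 fibroblast markers, 7 fell and none rose in the authors' deposited table (DESeq2; none was higher at an unadjusted p under 0.05 either), beside 15.4% of all genes lower and 15.3% higher, with a median log2 fold change of -0.38 and a summed level that went from 746782 to 592389 normalised counts. Much of the fall in that sum was Col3a1, whose implied level went from 123199 to 50249. Most of this list has a mean of at least 500, where 20.7% of genes with an adjusted p were lower and 18.8% higher. Dcn (decorin) fell by 1.77 (SE 0.08), Col3a1 (a fibrillar collagen chain) by 1.29 (SE 0.06), Postn (periostin) by 0.63 (SE 0.08) and Thy1 (a surface protein) by 0.53 (SE 0.07) on the log2 scale in the authors' deposited table. These 4 are the ones with the smallest adjusted p. Their deposited log2 fold changes lie below that of Acta2, and those of the other 8 markers lie above it.

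Pericyte markers, which overlap in expression with smooth muscle, were mixed. Of the 8 with an adjusted p in the authors' deposited table, 3 passed, 1 higher and 2 lower, and 5 did not. Among all genes 30.6% passed, 15.3% higher and 15.4% lower. Mcam (an adhesion molecule) rose by 0.76 (SE 0.05, DESeq2 adjusted p = 1.49e-53) on the log2 scale. Rgs5 fell by 0.62 (SE 0.14) and Pdgfrb by 0.32 (SE 0.08) on the same scale in the authors' deposited table, and Cspg4 had a log2 fold change of 0.02 (SE 0.07). The summed level of this list of 10 went from 14926 to 20055 normalised counts. Mcam alone rose by more than the whole list, from 8290 to 14018, so the other genes summed together fell. Higd1b was at 0 in the authors' deposited table.

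Of the skeletal and cardiac muscle genes, 10 of 18 were at a mean under 3 normalised counts in the authors' deposited table, among them Myod1 at 0.159, Myog at 0.160 and Myf5 at 0.155. Of the 8 with an adjusted p, Ttn (titin) alone passed in the authors' deposited table, beside 15.3% of all genes higher, with a log2 fold change of 0.80 (SE 0.22, DESeq2 adjusted p = 0.00215) at a mean of 34.3. Mylpf, Ryr1 and Tnnt2 did not pass, at means of 44.7, 31.7 and 65.0 in the authors' deposited table. The list's summed level went from 239 to 260 normalised counts in the authors' deposited table. Such sums rest on the deposited fold changes, which may be shrunk more in thinly counted genes, and so may understate a difference.

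The endothelial, leukocyte and epithelial lists are small, and 30.6% of all genes passed. Their summed levels have the same limit where the genes are thinly counted. Of 6 endothelial genes with an adjusted p, none passed in the authors' deposited table (DESeq2; 0 at an unadjusted p under 0.05), including Pecam1, Kdr, Tek and Emcn, and their list's summed level was 319 without and 327 with the added factors. The list of 6 leukocyte genes, with Lyz2, Csf1r, Adgre1 and Ptprc, summed to 20165 without and 20493 with the added factors, and none passed in the authors' deposited table (DESeq2; 1 was lower at an unadjusted p under 0.05). Of 4 epithelial genes with an adjusted p, Krt19 and Epcam rose by 0.61 (SE 0.17) and 0.64 (SE 0.22) on the log2 scale in the authors' deposited table, while Krt18 and Cdh1 did not pass, and the list's summed level went from 275 to 386.

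**Figure D5:**
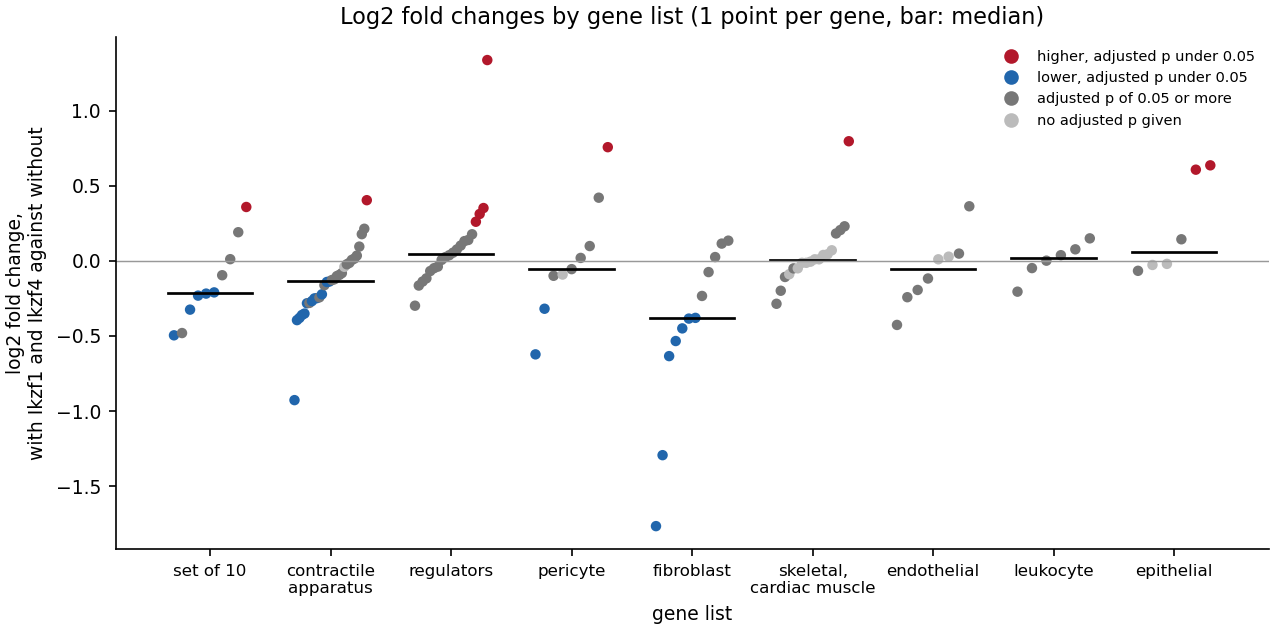
Log2 fold changes by gene list from the authors' deposited table, 1 point per gene and a bar at the median, coloured by call. The set of 10 and the contractile apparatus have medians of -0.21 and -0.13, the regulators one of 0.05 and the fibroblast markers one of -0.38.

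Chromatin accessibility at the 10 genes was not analysed here, because gene positions in the build of the ATAC-seq peak lists were not among the sources used.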

How the data were processed

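RNA-seq was read in 6 libraries of mouse embryonic fibroblasts, 3 per group, from poly(A)-selected RNA per the labels' protocols. Per the submitters' processing notes Salmon and DESeq2 were among the tools, with no version named there. The authors deposited estimated counts and TPM for each of 117135 transcripts. The gene comparison deposited by the authors holds a mean normalised count (a signal over the 6 libraries), a log2 fold change and standard error, and p-values before and after adjustment, with a Wald score, the fold change over its error.

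No source used here pairs transcripts with genes, so the planned edgeR test of gene sums was not run, and the calls are those of the deposited table (adjusted p under 0.05, genes without an adjusted p left out). Ratios and 95% intervals were computed from its log2 fold change and standard error, and group levels from its mean and log2 fold change. A level without the added factors is the one whose average with the other equals the mean. The log2 fold changes may be shrunk, since the median standard error was 0.049 at a mean under 2 and 0.065 over 1000. In all 8 genes with recovered values the log2 ratio of the group means was larger in size than the deposited value, from -0.503 against -0.495 for Acta2 to -0.100 against -0.066 for Krt18, at a mean of 50.3. Levels are counts, not per length, so they give the depth behind a gene and no ranking of expression between genes.

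Values per library were recovered by numerical identity, a step chosen after seeing the data. A deposited mean was modelled as the mean over libraries of rounded reads divided by a size factor and a relative effective length. With the 6 size factors in the best of 720 orders, 1384 of 12201 genes over a mean of 100 were matched by 1 transcript within a relative 2e-08, against 7 in the next best order. Acta2 and Cnn2 were each matched by the sum of 1 set of 2 transcripts within 5e-10. Only sets with a fold change near the deposited one were taken, so the recovered values are no independent check of it. Targets shifted on purpose were matched in 0 of 200 trials for Acta2 and 2 of 200 for Cnn2. The pairing is inferred, and the other 8 members had no single match.

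Transcripts were tested with edgeR 4.0.16 (quasi-likelihood, TMM, filterByExpr, R 4.3.3) on estimated counts rounded to whole numbers, and DESeq2 1.42.0 and limma 3.58.1, on log2(TPM + 0.5), were alternatives. Of 43526 transcripts 3095 (7.11%) passed. The scripts were tested on simulated data. Promoters are RefSeq windows of GRCm38.p6, matched by symbol. The members and lists were chosen with earlier results of these data known. All 10 members are named. From each other list the 4 genes with the smallest adjusted p are named (filled up by mean level where fewer pass), and paralogues where their family is described. Myod1, Myog, Myf5 and Higd1b were also named, outside this rule. ATAC-seq peak lists were not analysed here.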

Additional observations from a re-analysis of the deposited data

How the results depend on the processing

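In the authors' deposited table the 6 calls among the 10 genes held at an adjusted p under 0.01 and with Benjamini-Hochberg adjustment over every raw p. When an absolute log2 fold change over 0.5 was also required, 1715 genes passed in place of 5133, and of the 10 genes 0 were called lower and 0 higher. The recovered log2 ratio of Acta2, -0.503, lies just past that limit, against -0.495 as deposited. With that requirement the calls went from 13 to 1 for the contractile apparatus, from 4 to 1 for the regulators and from 7 to 4 for the fibroblast markers. Of 43526 transcripts, edgeR called 3095. DESeq2 called 7372 of the 54053 it tested, and 1849 of 83869 passed with no filter on low counts, so the tested sets differed too. Leaving out 1 library gave 728 to 1701 transcripts, with 45871 to 46518 tested, a change in the count of more than 1.5 times for each of the 6 libraries. No library could be left out of the deposited gene values. The cause of these shifts was not tested.

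Same-numbered libraries gave no sign of pairing: their deviations correlated at -0.017, -0.001 and 0.005. The check gave thinly counted transcripts the same weight as others, so it cannot show that the libraries are unpaired. With the replicate number as a block, 8 transcripts passed. The edgeR test of gene sums with its alternatives, and the peak comparison with its alternatives, were not run.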

Other observations

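The neighbours of the 10 genes were read in the same comparison. They are the nearest protein-coding gene with an adjusted p on each side in the RefSeq order. Genes that overlap a member, such as Pcsk7 and Car9, were left out. Of 20 neighbours, 1 rose, 2 fell and 17 did not pass in the authors' deposited table (DESeq2, adjusted p under 0.05), where 30.6% of all genes passed. Fas, a death receptor and the neighbour of Acta2, rose by 0.58 (SE 0.09, DESeq2 adjusted p = 7.41e-09) on the log2 scale per the authors' deposited table, while Acta2 itself fell by 0.50. Stambpl1, on the other side of Acta2, had a log2 fold change of 0.11 (SE 0.07, DESeq2 adjusted p = 0.262) per the authors' deposited table. Sidt2 beside Tagln fell by 0.14 (SE 0.05) and Dnpep beside Des fell by 0.32 (SE 0.06) in the authors' deposited table. Cnn1, which rose, had neighbours Ecsit and Elof1 with log2 fold changes of 0.03 (SE 0.10) and -0.14 (SE 0.08), neither past the test in the authors' deposited table. These neighbours were chosen after the members' values were seen. Actg2 and Des each overlap a long non-coding RNA gene, Gm38844 and Gm15179, so reads at those places could belong to either gene if strand was not used.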
